A study of Mus musculus with 8 samples.

Results

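The replication-dependent histone genes are the intron-poor genes that supply core and linker histones to newly copied DNA. Every protein-coding gene of the mouse annotation (GENCODE vM21, build mm10) whose name begins with Hist1h, Hist2h, Hist3h or Hist4h was taken, which gave 67 genes of 21951. They comprised 6 genes of the linker histone H1, 18 of H2A, 18 of H2B, 12 of H3 and 13 of H4. Chromosome 13 held 54 of them. Wherever neighbouring starts lay more than 100 kb apart the genes were split into groups, so that chromosome 13 had groups of 18, 5, 29 and 2 genes. The other 13 genes lay on chromosome 3 (10 genes), chromosome 11 (2 genes) and chromosome 6 (1 gene).

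Formaldehyde-assisted isolation of regulatory elements with sequencing (FAIRE-seq), which enriches DNA that is not crosslinked to nucleosomes, had been run on 2 mouse mammary epithelial lines. EpH4 is a line of mouse mammary gland epithelium that was not transformed with H-Ras. EpRas is its H-Ras-transformed derivative, which carries an active form of H-Ras. Each line was left untreated for 8 days or cultured with 1 ng/ml TGF-β3 (TGF-β) for 8 days, with 2 replicate libraries in each of the 4 groups. The medium held 10% serum for EpH4 and 4% for EpRas, so that the serum and the oncogene cannot be told apart in any comparison of the lines. According to the study's methods the replicates are biological, although neither they nor the labels say how the cultures were separated.

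In most vertebrate cells nucleosomes are built from 2 copies each of H2A, H2B, H3 and H4, and H1 binds the DNA that enters and leaves the particle. The genes of the core histones are transcribed mainly in S phase, from clusters that gather in nuclear histone locus bodies around the co-activator NPAT, and their mRNAs end in a stem-loop bound by SLBP instead of a poly(A) tail. Many H2A and H2B genes stand head to head, with their starts on either side of a short common stretch of DNA.

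The deposited lists held 10821 to 27337 FAIRE peaks per library, 129466 in all, each with a position and a score. A gene was counted as called in a library when a peak of that list overlapped the 1 kb on either side of any annotated transcription start site (TSS). The score percentile is the rank of a peak's score within its own list, from 0 at the bottom to 100 at the top, and a gene was given that of its strongest peak. The lists hold no reads, so sequencing depth was unknown and a gene without a call may have lacked an accessible start or may have missed the authors' limit. As a check of the labelled tissue, 5 of 6 epithelial markers were called in at least 1 library, against 40.2% of all genes. Their mean over libraries, 29.2%, was close to the 24.7% of all genes, so these calls say little about the tissue. Krt8 was called in 5 libraries and Krt18 in 3. Epcam was called in 0, and Cdh1, the gene of E-cadherin, was called in all 4 EpH4 and in 0 EpRas libraries. None of 7 immune, endothelial, liver and muscle markers was called in any library.

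Histone genes were called more often than protein-coding genes as a whole in each of the 8 libraries. In untreated EpH4 cells 37 of the 67 genes were called in replicate 1 and 37 in replicate 2, against 21.0% and 21.8% of all protein-coding genes. With TGF-β the counts in EpH4 were 51 and 32 (all genes, 26.8% and 18.2%). Untreated EpRas cells had 43 and 32 (all genes, 28.5% and 23.7%), and EpRas cells with TGF-β had 48 and 40 (all genes, 33.5% and 23.8%). The mean over the libraries was 59.7% ± 10.4 (SD, n = 8) of the histone genes and 24.7% ± 4.82 (SD, n = 8) of all genes. The share of histone genes was 2.01 to 2.84 times that of all genes.

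The histone genes divided into a set that was always called and a set that was never called, with 40 between them. In all, 18 of them, or 26.9%, were called in all 8 libraries, against 10.1% of all protein-coding genes. Of these, 16 stood in 8 head-to-head pairs, in which the same peak could count for both genes. When a peak went only to the nearest TSS, 4 histone genes were called in all 8 libraries. The 9 called in no library were 13.4% of the histone genes, against 59.8% of all genes. The scores of called histone genes overlapped those of other called genes. Over libraries, their median score percentile was 38.2 to 68.9, and that of all called genes 58.5 to 66.3. The heat map of all 67 genes shows each value.

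**Figure D1:**
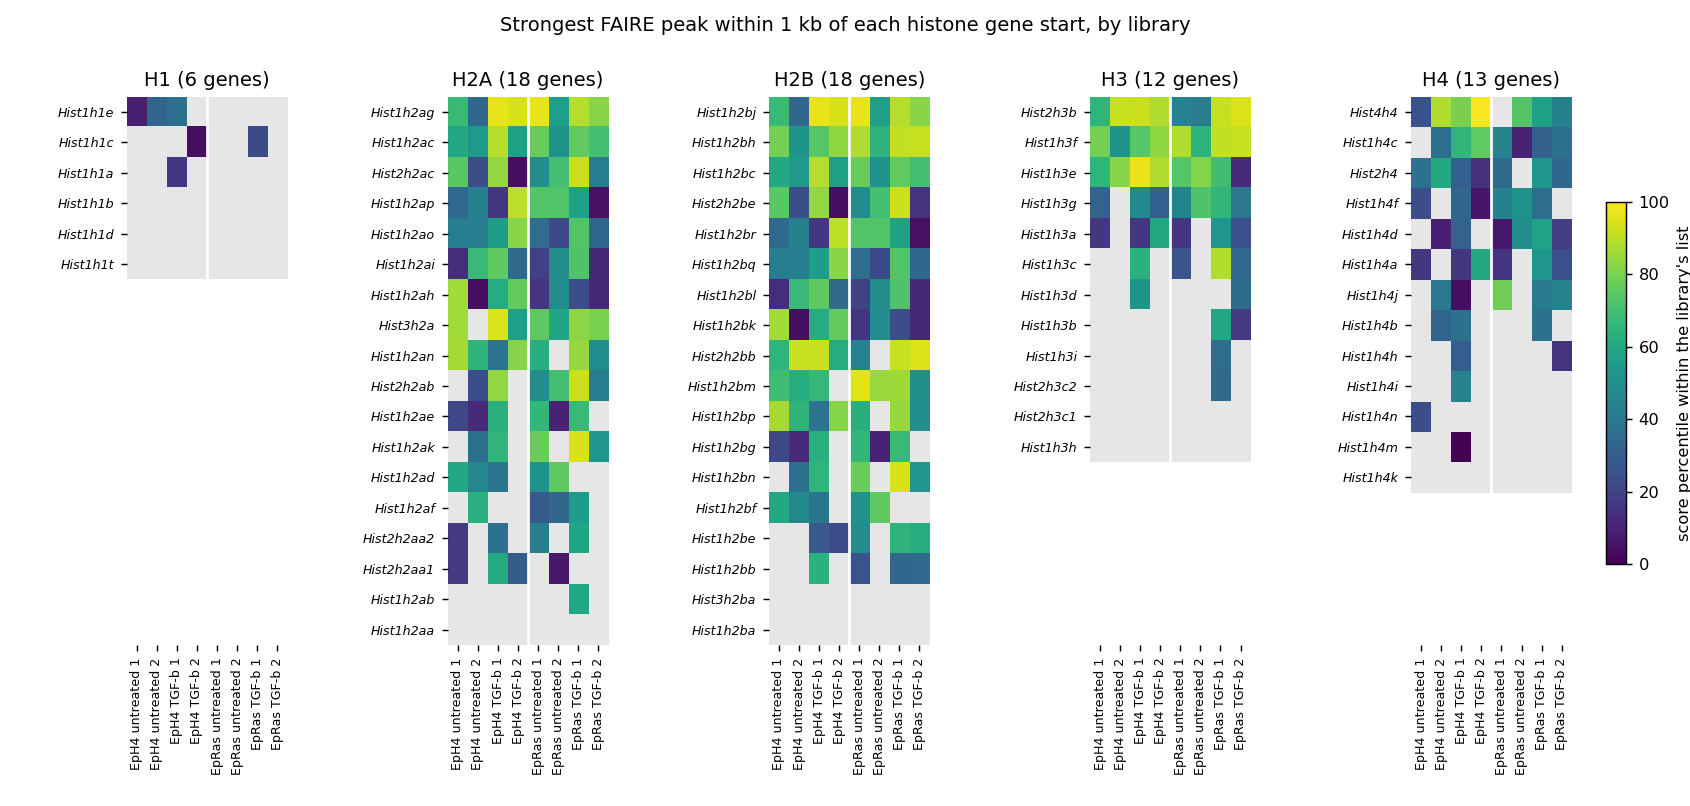
Score percentile (colour, 0 to 100 within a library's own list) of the strongest peak within 1 kb of each histone gene's start, with genes in rows by type and the 8 libraries in columns, EpH4 left and EpRas right of the white line. Grey cells have no peak. The 6 H1 genes are nearly all grey, whereas 7 of 18 H2A and 8 of 18 H2B genes are coloured in all 8 libraries.

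By type, H2A and H2B genes were called most often and H1 genes least often, but the place of H2A rested on peaks that count for neighbouring genes too. When a peak went only to the nearest TSS, H2A averaged 30.6%, below H3 (35.4%), H4 (50%) and H2B (55.6%) and above H1 (12.5%). With each peak counted for every gene whose window it overlapped, the values were as follows. H2B genes were called in 76.4% and H2A genes in 72.9% on average over the libraries, with 11 to 16 of 18 H2B genes and 10 to 15 of 18 H2A genes called per library. H3 genes averaged 49% (3 to 9 of 12) and H4 genes 50% (4 to 11 of 13). H1 genes averaged 12.5% (0 to 2 of 6), below the share of all genes in 7 of the 8 libraries. The ranges of the H2A and H2B genes overlapped, as did those of H3 and H4. No H4 and no H1 gene was called in all 8 libraries, whereas 7 H2A, 8 H2B and 3 H3 genes were.

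**Figure D2:**
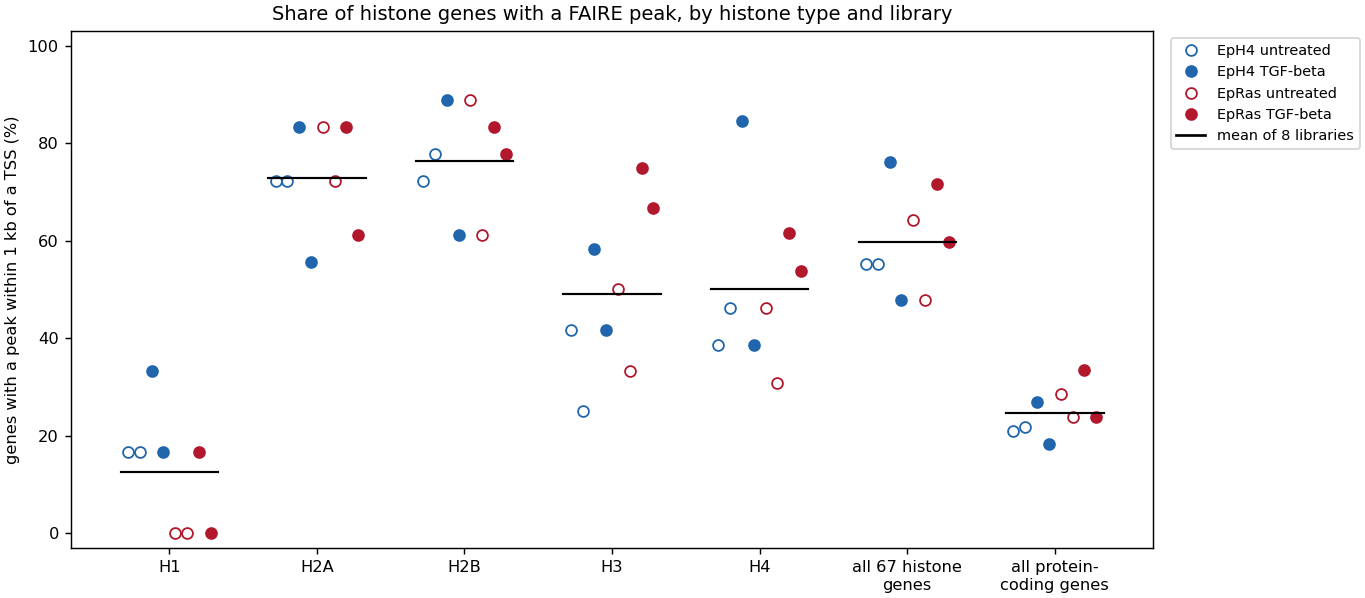
Percentage of genes with a FAIRE peak within 1 kb of a TSS (vertical axis) for each histone type, all 67 histone genes and all protein-coding genes. Each point is a library, open when untreated and filled with TGF-β, blue for EpH4 and red for EpRas, and each bar is the mean of the 8 libraries. H2A and H2B lie at 55.6% to 88.9%, H1 at 0% to 33.3%.

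The head-to-head arrangement went with most of the constant calls. Of the 67 genes, 26 formed 13 pairs in which starts on opposite strands lay no more than 1 kb apart and pointed away from each other. In 12 of these pairs an H2A gene faced an H2B gene, and in the other Hist1h2bh faced Hist1h3f. The distance between the starts was 176 to 660 bp, with a median of 268 bp. Because the windows of both genes then overlap, the same peak could count for both, and in all 13 pairs both genes had the same calls. The pairs are therefore read as 13 sites, not as 26 separate observations. Of them 8 were called in all 8 libraries and 1 in none.

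Paired histone genes were called in 83.7% ± 8.66 (SD, n = 8) on average, and the 41 others in 44.5% ± 14.1 (SD, n = 8). In each library more of the paired genes were called. Head-to-head genes were also called more often among all protein-coding genes, in 57% against 22.3% on average over the libraries. Within H2A and H2B, the 25 paired genes averaged 83% and the 11 unpaired genes 55.7%. Pairs were sought among protein-coding genes only. Hist1h2bm and Hist3h2a count as unpaired, but their sites, each called in 7 libraries, also overlapped a histone pseudogene. Hist1h2be, also unpaired, was called in 5 libraries at its annotated TSS and in 8 at its start codon.

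The pair with the highest median score percentile, Hist1h2ag (H2A) and Hist1h2bj (H2B), is shown to give the stretch that such a pair shares. It lies on chromosome 13 from TSS to TSS (mm10, chr13:22042944-22043214, + strand, RefSeq genome GRCm38.p6), intergenic between Hist1h2ag on the minus and Hist1h2bj on the plus strand. Capitals here and in the sequences that follow mark matches, on either strand, to the CCAAT box (CCAAT), the TATA box (TATAAA), the histone octamer (ATTTGCAT), the E2F word TTTCCCGC and its variant TTTGGCGC, the ETS word ACGGAAG (also beginning with C or ending with A) and the AP1 word TGACTCA with its complement form TGAGTCA, none of which contains another.
Hist1h2ag-Hist1h2bj: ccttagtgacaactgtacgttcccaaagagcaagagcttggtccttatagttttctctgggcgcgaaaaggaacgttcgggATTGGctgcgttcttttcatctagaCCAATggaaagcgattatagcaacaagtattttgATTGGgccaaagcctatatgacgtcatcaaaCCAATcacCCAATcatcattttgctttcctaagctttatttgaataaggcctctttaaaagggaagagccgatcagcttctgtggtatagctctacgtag
The stretch held 5 CCAAT boxes in its 271 bases, and no match to the other words. Its score percentiles were 67.2 and 32.9 in untreated EpH4, 96.1 and 94.1 in EpH4 with TGF-β, 96.5 and 56.4 in untreated EpRas, and 89 and 82.2 in EpRas with TGF-β. The merged peak covered 22042899 to 22043320, that is the whole shared stretch and the first bases of both genes.

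Other constant pairs had lower median scores. Hist1h2ac and Hist1h2bc had score percentiles of 60.3 and 54.1 in untreated EpH4, 88.7 and 56.7 with TGF-β, 76.6 and 51.5 in untreated EpRas, and 75.4 and 70.2 with TGF-β. On chromosome 3, Hist2h2ac and Hist2h2be had 74.6 and 24 in untreated EpH4 and 83.9 and 3.64 with TGF-β at the strongest peak of either gene. The values were 49.3 and 70 in untreated EpRas and 92 and 42 with TGF-β, where the last came from a peak near Hist2h2ab and the site of Hist2h2be itself had 15.6. Replicates of a group thus lay as far apart as 83.9 and 3.64 at a site called in every library, and the lines overlapped at each of these 3 sites.

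Hist1h2bh and Hist1h3f, whose starts lay 660 bp apart, had 2 separate sites, both called in all 8 libraries. The first covered 23543297 to 23543702 at the start of Hist1h2bh, and the second 23544230 to 23544515, beyond the annotated start of Hist1h3f and over its start codon. The stronger of the peaks had percentiles of 79, 51.8, 73.9 and 83.4 in the EpH4 libraries and 88.1, 64.8, 90.8 and 91.1 in the EpRas libraries, which overlap.

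Peaks lay just upstream of the starts. Over the 58 histone genes with a call, the midpoint of the strongest peak lay at a median of 100 bp before the TSS (−100 bp), and at −59.2 bp over the 8827 protein-coding genes with a call. The medians were −122 bp for H2A, −127 bp for H2B, −86.8 bp for H3 and −55 bp for H4. Head-to-head pairs, with starts a median of 268 bp apart, can count the same peak upstream of both genes. In 13 of the 67 genes an annotated TSS lay on the start codon itself. The part of either in the difference from all genes was not tested. In 49 of the 58 genes the median midpoint was within 250 bp of the start. In 8 it lay more than 500 bp away. For Hist1h2ab, Hist2h2ab, Hist1h3a and Hist2h3b that peak was next to the start of a neighbouring histone gene.

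**Figure D3:**
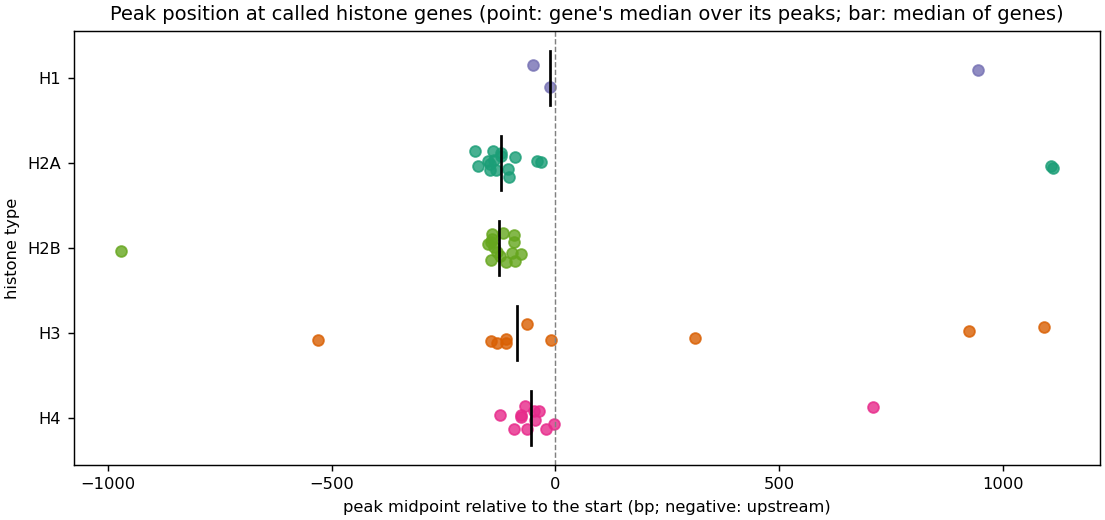
Position of the peak midpoint relative to the start (bp, negative upstream) for the 58 histone genes with a call, by type. Each point is a gene's median over its strongest peaks and each bar the median of the genes. Most points lie just left of 0 bp, and the 8 points beyond 500 bp are genes whose strongest peak is away from their start.

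The H3 genes called in every library were Hist1h3f, Hist2h3b and Hist1h3e. Hist1h3e, which stands alone, had its own site (23562335 to 23562677) with percentiles of 65.6, 81.7, 97 and 88 in EpH4 and of 73.8, 81.5, 69.3 and 11.8 in EpRas. The EpRas library with the lowest value was replicate 2 with TGF-β, and the lines overlapped. Hist2h3b owed most of its calls to a neighbour. A site at its own start (chr3:96268492-96268746) was called in 3 libraries, and the remaining calls came from the site of Hist2h2bb, whose start is close by. The score percentiles of the stronger peak at Hist2h3b were 65.6, 91.7, 91.9 and 88.1 in EpH4 and 44.4, 42, 91.5 and 94.6 in EpRas. Hist1h3h and Hist2h3c1 were called in 0 libraries, and Hist1h3i and Hist2h3c2 in 1 each.

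H4 genes carry the smallest core histone and stood alone, none of them in a head-to-head pair. Of 13, 12 were called in at least 1 library and 0 in all 8. Hist1h4k was the 1 called in no library. Hist4h4 on chromosome 6, the sole member of its group, was called in 7 libraries. Its score percentiles were 25.3 and 87.9 in untreated EpH4, 79.6 and 98.9 in EpH4 with TGF-β, 73.2 in replicate 2 of untreated EpRas, and 57.4 and 43.7 in EpRas with TGF-β. Hist2h4 on chromosome 3 was called in 7 libraries at percentiles of 13.9 to 60.8, and Hist1h4c in 7 at 9.41 to 75.7. Hist1h4d, called in 6 libraries at percentiles of 6.51 to 57.5, is shown as an H4 promoter of intermediate calls (250 bases before to 50 after the RefSeq start, GRCm38.p6, chr13:23581318-23581617, + strand).
Hist1h4d: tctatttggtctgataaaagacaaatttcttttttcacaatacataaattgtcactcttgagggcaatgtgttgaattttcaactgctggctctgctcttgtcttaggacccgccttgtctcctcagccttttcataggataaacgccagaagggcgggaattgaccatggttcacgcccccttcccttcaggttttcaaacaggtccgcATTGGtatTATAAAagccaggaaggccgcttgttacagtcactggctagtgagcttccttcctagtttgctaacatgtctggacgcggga
It held 1 CCAAT box, 1 TATA box and no other word. Among RefSeq promoters of this length, matched for 62 of the 67 genes, a CCAAT box was found in 3 of 12 for H4 genes. It was found in all 6 H1, 18 H2A, 16 H2B and 10 H3 promoters, and in 38.2% of 21262 promoters of protein-coding genes.

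Other words were also uneven between the types. The octamer was in 7 of 18 H2A and 6 of 16 H2B promoters and in 0 of the others, against 1.66% of all protein-coding promoters. A head-to-head pair counts the same octamer for both genes where the windows overlap. A TATA box was in 35 of 62 histone promoters (56.5%) against 12.6% of all. Among the 15 matched promoters of genes called in all 8 libraries 4 held one, and among the 9 promoters of genes called in none, 7 did. E2F words were in 1 of 62 (2.02% of all), ETS words in 5 (18.4% of all), and AP1 words in 0 (4.66% of all). Median GC content was 45.3% for histone promoters and 56.3% for all protein-coding promoters.

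The linker histone genes were called at a mean of 12.5% per library, against 24.7% of all genes. Hist1h1b, Hist1h1d and Hist1h1t were called in 0 libraries, Hist1h1a in 1, Hist1h1c in 2 and Hist1h1e in 3. Thus 3 of 6 were called in no library, against 59.8% of all genes, and 3 in at least 1, against 40.2%. With 6 genes these shares are coarse, and start codons added calls for 2 of them, as given below. Hist1h1t is the testis-specific linker histone. The 3 calls of Hist1h1e were all in EpH4, with score percentiles of 8.45 and 32.4 in the untreated libraries and 36.7 in TGF-β replicate 1. It was called in neither TGF-β replicate 2 of EpH4 nor any EpRas library. Hist1h1c was called at percentiles of 4.15 (EpH4 with TGF-β, replicate 2) and 22.3 (EpRas with TGF-β, replicate 1), from a site about 1 kb into the gene. Hist1h1a was called at 16 in EpH4 with TGF-β, replicate 1. These values rank in the lower part of the lists.

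Promoters of Hist1h1e, called in 3 libraries, and Hist1h1b, called in none, are shown to compare H1 genes with and without a call (RefSeq, GRCm38.p6). They lie at chr13:23622509-23622808 and chr13:21780576-21780875, both on the minus strand.
Hist1h1e: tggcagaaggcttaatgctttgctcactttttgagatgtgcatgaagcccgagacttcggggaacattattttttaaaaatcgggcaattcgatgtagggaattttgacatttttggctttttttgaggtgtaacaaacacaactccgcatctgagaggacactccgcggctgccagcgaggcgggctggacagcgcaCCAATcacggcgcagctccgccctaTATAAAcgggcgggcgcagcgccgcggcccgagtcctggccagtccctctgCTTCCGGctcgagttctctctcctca
Hist1h1b: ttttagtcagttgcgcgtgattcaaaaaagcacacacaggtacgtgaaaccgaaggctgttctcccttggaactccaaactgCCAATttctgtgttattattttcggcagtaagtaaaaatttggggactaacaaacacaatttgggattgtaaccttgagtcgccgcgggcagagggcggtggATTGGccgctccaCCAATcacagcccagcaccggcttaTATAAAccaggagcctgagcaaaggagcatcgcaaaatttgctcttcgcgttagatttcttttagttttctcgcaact
Both held a TATA box and at least 1 CCAAT box, Hist1h1b having 3. An ETS word was present in that of Hist1h1e alone. For Hist1h1d the choice of start mattered. The GENCODE start lay 1770 bp from the RefSeq start and 1828 bp before the start codon, and within 1 kb of the start codon a peak was present in 3 libraries. For Hist1h1b a peak within 1 kb of the start codon was present in 1.

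The 2 H2A and H2B genes of the testis, Hist1h2aa and Hist1h2ba, form the last group on chromosome 13. They stand head to head like the pairs that were always called, 306 bp apart, yet no library had a peak there. The promoter of Hist1h2aa is shown for comparison with the pair above (RefSeq, GRCm38.p6, chr13:23934187-23934486, + strand), since it reaches over most of the shared stretch.
Hist1h2aa: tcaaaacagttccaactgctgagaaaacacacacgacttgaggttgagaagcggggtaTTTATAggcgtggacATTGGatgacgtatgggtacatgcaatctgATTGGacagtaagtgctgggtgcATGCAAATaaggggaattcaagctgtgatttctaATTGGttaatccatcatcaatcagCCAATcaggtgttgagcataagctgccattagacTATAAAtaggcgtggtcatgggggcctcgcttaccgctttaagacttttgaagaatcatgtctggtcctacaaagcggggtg
It held 4 CCAAT boxes, 2 TATA boxes and 1 octamer.

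Apart from the testis pair, every group had a larger mean share of called genes than the genome average when neighbours could share a peak. Means over libraries were 60.4% in the first group of chromosome 13 (18 genes), 82.5% in the second (5 genes), 57.3% in the third (29 genes) and 66.2% on chromosome 3. They were 43.8% on chromosome 11 (2 genes) and 87.5% on chromosome 6 (1 gene). On chromosome 11, Hist3h2ba was called in 0 libraries and Hist3h2a in 7, at score percentiles of 56.5 to 94.2. The site of Hist3h2a lies at the start of Trim17 as well, a gene of the TRIM family called in the same number of libraries, and was closer to the latter. When a peak went only to the nearest TSS, the chromosome 11 histone genes averaged 0%, against 15.8% to 29.8% of all genes per library. Hist2h2ab on chromosome 3 was called in 6 libraries and Hist2h2bb in 7. The map of starts shows never-called genes between constant ones. For example, Hist1h3h lies beside the pair Hist1h2bl and Hist1h2ai, which was called in all 8 libraries.

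**Figure D4:**
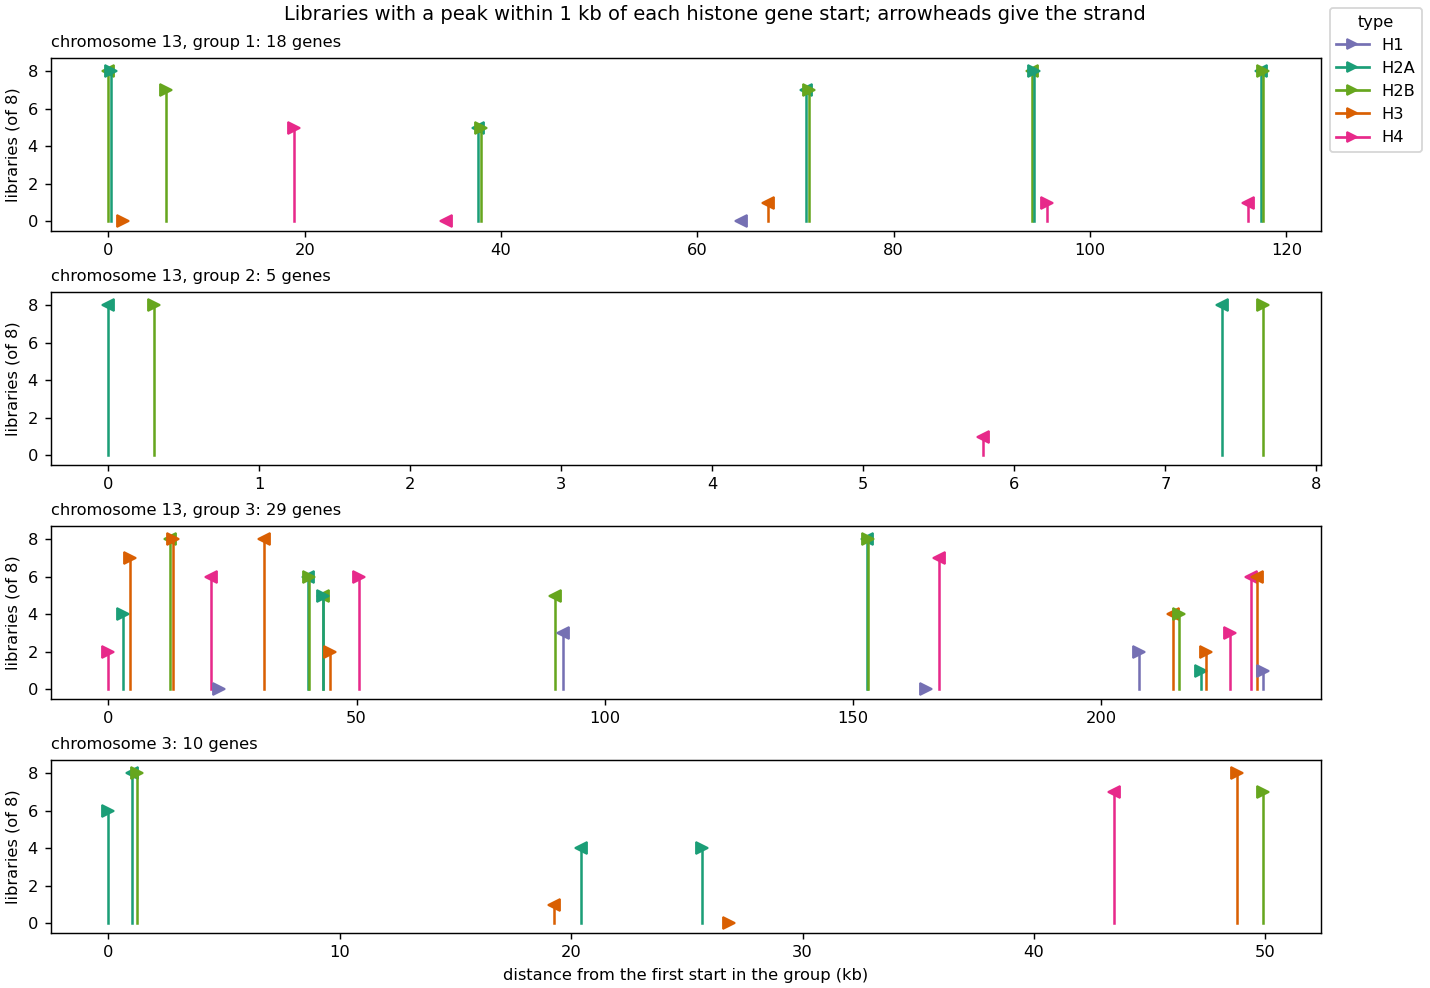
Number of libraries of 8 with a peak within 1 kb of the start (vertical axis) for each histone gene of 4 groups, against the distance from the first start of the group (kb). Colours give the type and arrowheads the strand. Coinciding H2A and H2B arrowheads at 8 are head-to-head pairs and genes at 0 were called in no library.

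Merging the peaks of all lists gave 49 sites near histone gene starts, 10 of them called in all 8 libraries, and 15 further sites inside the groups but away from any start used here. One of the latter was called in all 8 libraries. It covered 23585816 to 23586215 and lay over the start codon of Hist1h2be, whose annotated TSS is 35138 bp away, close to Hist1h1e. With the start codon in place of the TSS, Hist1h2be was thus called in 8 libraries in place of 5. On chromosome 3, intergenic sites downstream of Hist2h2be were called in 7 libraries (chr3:96226699-96227030) and in 4 (chr3:96227379-96227641). The second was called in all 4 EpH4 and 0 EpRas libraries. Of 8855 merged regions on chromosomes 3, 6, 11 and 13, 0.881% had that pattern. It was the only one of 64 sites in or near the histone groups to do so, and was picked out after its values were seen.

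Many of these genes are copies of each other, which bears on where short reads can be placed. The authors trimmed reads to 36 bp, so the share of 36-base words that occur at more than 1 place in the genome was computed for each window. The median was 22.9% over the 67 windows of 1 kb on either side, 69.3% over the first 400 bp of the genes and 0% over the 300 bases around the starts. In 46 of the 67 genes these 300 bases held no repeated word. The pairs Hist1h2bq and Hist1h2ao, and Hist1h2ap and Hist1h2br, repeated in 100% of their words, and yet each was called in all 8 libraries. Their score percentiles were 22.5 to 82.2 and 4.68 to 90. A 36-base read from these sites fits at least 2 places, so which copy it came from cannot be told apart. By contrast H1 windows held almost none (median 0.585%), and the 9 genes called in none had a median of 9.72%. Without the 10 genes whose windows were more than 50% repeated, 27 to 44 of 57 genes were called per library (47.4% to 77.2%). Of the 57, 14 were called in all 8 libraries and 8 in none. All protein-coding genes, with none left out for repeats, were called at 18.2% to 33.5% per library. Of them 10.1% were called in all 8 and 59.8% in none.

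On chromosome 3, Hist2h2aa1 and Hist2h2aa2, which encode H2A, are an inverted duplication. Their promoters are printed to show how alike they are (RefSeq, GRCm38.p6, chr3:96245247-96245546 on the plus and chr3:96240325-96240624 on the minus strand).
Hist2h2aa1: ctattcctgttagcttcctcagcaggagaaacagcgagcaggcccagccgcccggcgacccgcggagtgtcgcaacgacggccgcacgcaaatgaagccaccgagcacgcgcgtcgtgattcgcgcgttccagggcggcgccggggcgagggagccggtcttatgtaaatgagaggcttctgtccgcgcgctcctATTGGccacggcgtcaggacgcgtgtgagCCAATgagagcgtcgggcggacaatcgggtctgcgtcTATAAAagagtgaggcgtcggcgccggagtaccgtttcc
Hist2h2aa2: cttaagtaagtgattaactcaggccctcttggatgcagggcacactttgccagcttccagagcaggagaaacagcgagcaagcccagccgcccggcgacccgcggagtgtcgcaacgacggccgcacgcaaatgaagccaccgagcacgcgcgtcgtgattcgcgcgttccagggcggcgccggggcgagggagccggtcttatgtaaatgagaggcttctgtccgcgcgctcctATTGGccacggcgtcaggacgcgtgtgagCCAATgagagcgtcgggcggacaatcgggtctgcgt
With a shift of 40 bases, 249 of 260 overlapping bases were identical. Hist2h2aa1 was called in untreated EpH4 replicate 1 (percentile 17.1), both EpH4 libraries with TGF-β (61.3 and 29.6) and untreated EpRas replicate 2 (6.59). Hist2h2aa2 was called in replicate 1 of all 4 groups, at 17, 37.3, 42.9 and 58.8. The neighbouring copies Hist2h3c1 and Hist2h3c2 encode H3 and were called in 0 and 1 libraries. The 36-base words of their windows were 80.1% and 79.1% repeated.

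The first comparison of the design asks how the Ras-transformed line differs from its parent. The number of histone genes called was 39.2 ± 8.18 (SD, n = 4) in EpH4 and 40.8 ± 6.7 (SD, n = 4) in EpRas, and the lines overlapped. The lists of EpRas were longer, however (13784 to 27337 against 10821 to 17927 peaks). The ratio of the share of histone genes called to that of all genes called was 2.53 to 2.84 in EpH4 and 2.01 to 2.5 in EpRas, without overlap. When each list was cut to its 10821 highest scores, 36, 32, 32 and 32 histone genes were called in EpH4 and 30, 28, 27 and 21 in EpRas. The difference of the means, EpRas minus EpH4, changed from 1.5 genes with full lists to −6.5 genes. All genes were called at 18.2% to 19.4% in EpH4 and 18% to 21.8% in EpRas with these cut lists. Without the histone genes left out above for repeated windows, the lines were no longer apart in the cut lists. Of the 57 histone genes that remain, 29, 28, 29 and 27 were called in EpH4. In EpRas 27, 24, 25 and 21 of them were called, so the lines met at 27.

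The share of peaks on chromosome 13 was also lower in EpRas, and so was that on chromosome 3. Peaks on chromosome 13 were 5.3% to 5.54% of the cut lists in EpH4 and 4.2% to 4.55% in EpRas. The 784 other protein-coding genes of that chromosome were called at 17.1% to 20% and at 14.9% to 19.6%, which overlap. Peaks on chromosome 3 were 6.13% to 6.26% of the full lists in EpH4 and 5.23% to 5.53% in EpRas. From the cut lists, the 994 other genes of chromosome 3 were called at 18.5% to 20.9% and at 15.6% to 18.9%, which overlap. The 54 histone genes of chromosome 13 gave 24 to 27 calls in EpH4 and 15 to 23 in EpRas from the cut lists. The 13 histone genes elsewhere gave 7 to 9 and 6 to 7, which meet at 7. The part of these values in the result was not tested.

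**Figure D5:**
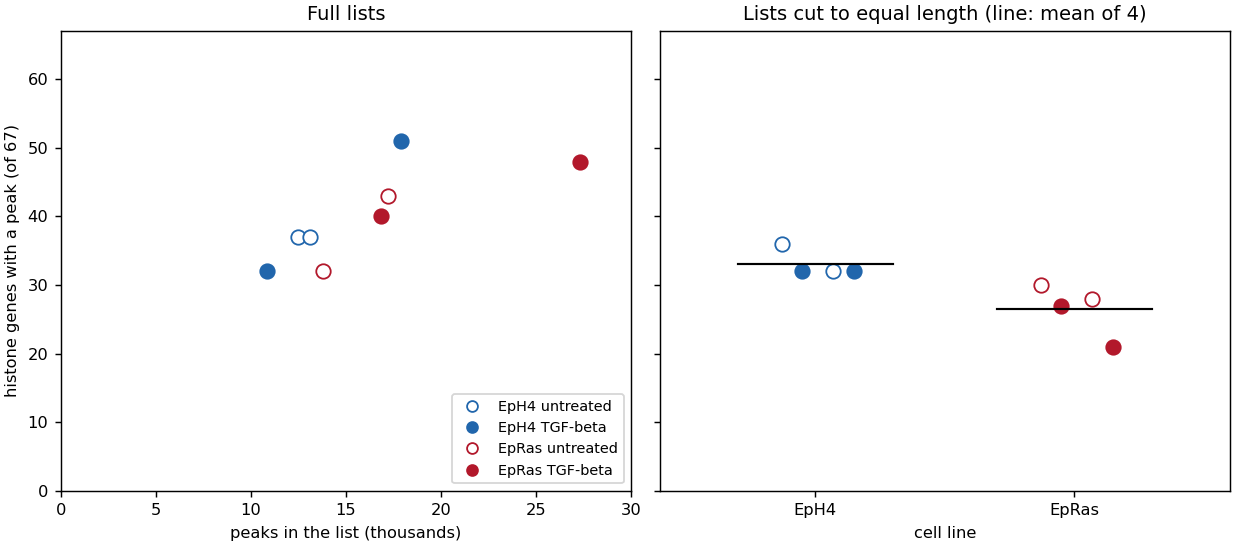
Histone genes called (of 67, vertical axis) against the number of peaks in the list (left) and with all lists cut to 10821 peaks (right). Points are libraries, open when untreated and filled with TGF-β, blue for EpH4 and red for EpRas, and bars on the right are means of 4. With cut lists EpH4 lies at 32 to 36 and EpRas at 21 to 30. Over the 57 less repeated histone genes alone the lines met at 27.

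Gene by gene, no histone gene separated the lines. A two-sided exact permutation test of the calls over all 21951 genes, adjusted by Benjamini-Hochberg, gave an adjusted p of 1 for every gene. Before adjustment 145 genes reached the smallest p that 4 against 4 libraries allow, 119 of them called in all EpRas and no EpH4 libraries (0.542%) and 26 the reverse (0.118%), with 0 histone genes in either set. The smallest p of a histone gene was 0.143 (exact permutation, adjusted p = 1), for Hist1h1e, called in 3 EpH4 and 0 EpRas libraries. Within the untreated groups, Hist1h1e was called in both EpH4 and no EpRas replicate (background 0.911%) and no histone gene showed the reverse (2.91%). Among the libraries with TGF-β, Hist1h3b was called in both EpRas and no EpH4 replicate (2.75%), at percentiles of 60.1 and 16.8. Hist2h2aa1 was called in both EpH4 and no EpRas replicate (0.569%). With 1 gene of 67, or 1.49%, each of these is a count too small to read against its background. The site of Hist2h2aa1 was also 74.1% repeated in 36-base words. Its near copy Hist2h2aa2 was called with TGF-β in replicate 1 of EpH4 (37.3) and of EpRas (58.8). Which copy the reads came from was not tested.

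The second comparison asks what 8 days of TGF-β changed. The number of histone genes called was 37.2 ± 4.5 (SD, n = 4) without and 42.8 ± 8.54 (SD, n = 4) with TGF-β, and the ranges of 32 to 43 and 32 to 51 overlapped. The difference of 5.5 genes became −3.5 with lists of equal length. No histone gene was called in all 4 libraries with TGF-β and none without (background 0.0364%), or the reverse (0.00456%). By the exact permutation test 9 of all genes had a p below 0.05, none after adjustment, and the smallest p of a histone gene was 0.143 (exact permutation, adjusted p = 1).

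That p was shared by 3 genes. Hist1h2be was called in 1 untreated library and all 4 with TGF-β, at score percentiles of 49.5 in untreated EpRas replicate 1, 28.1 and 23.2 in EpH4 with TGF-β, and 65.2 and 62 in EpRas with TGF-β. These calls lie at an annotated TSS 35138 bp from the start codon. At the start codon itself Hist1h2be was called in all 8 libraries, so that site did not differ between treatments. The head-to-head pair Hist1h2bf and Hist1h2ad went the other way, called in all 4 untreated libraries (60.3, 46.1, 51 and 75.3) and in 1 with TGF-β (EpH4 replicate 1, 38.8). Within EpH4, Hist1h2be was called in both libraries with TGF-β and in neither without (background 1.18%), and 0 genes showed the reverse (0.765%). Within EpRas, Hist1h3b was the 1 gene called only with TGF-β in both replicates (1.23%), and Hist1h2bf and Hist1h2ad the 2 called only without (0.355%), at 1 shared site. The mean count with TGF-β minus that without was 4.5 genes in EpH4 and 6.5 in EpRas, while the EpH4 replicates with TGF-β had 51 and 32 genes. The difference between these effects, 2 genes, was not tested, and came to −7.5 when the second of these EpH4 libraries was left out and to 11.5 when the first was.

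The genes that serve histone supply elsewhere in the genome were counted in the same way, against 10.1% of all genes called in all 8 libraries and a mean of 24.7% per library. Of 11 genes of replication-independent histone variants, H2afx, H2afv, H3f3b and Cenpa, the centromeric H3, were called in all 8 libraries, and H1fx, H2afy2 and H3f3a in 0. Of 19 genes of the histone locus body and of histone mRNA processing, 6 were called in all 8 libraries. They were Npat, Casp8ap2, Slbp, E2f1, Upf1 and Hinfp, the last a factor known to bind H4 promoters. The mean over libraries was 60.5% for these 19 genes and 52.3% for the variants. Of 12 histone chaperones and import factors Asf1b, Chaf1a and Chaf1b were constant, with a mean of 59.4% for the list. Coil, the gene of the Cajal body protein coilin, was called in 0 EpH4 and 4 EpRas libraries. Lsm10, a subunit of the U7 particle, and Rbbp7, a histone-binding chaperone, were each called in 0 EpH4 and 3 EpRas libraries. Of all genes, 0.542% were called in all EpRas and no EpH4 libraries, and 2.86% in at least 3 more EpRas than EpH4 libraries. Coil, Lsm10 and Rbbp7 were the only genes of the 42 on these lists that differed by at least 3 libraries between the lines, and none did between treatments.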

How the data were processed

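FAIRE-seq libraries of EpH4 and EpRas cells were analysed from the peak lists alone. The authors aligned Ion Proton reads, cut to 36 bp, to mm10 (Bowtie2). MACS2 (2.0.9, from the submitters' processing notes) then gave a separate list for each library, without pooling. The deposited score has no stated meaning, and was used only for ranks and thresholds. The use of a control, of duplicate reads and of reads with several positions is not given in the sources used here. How multiply mapped reads were placed affects the duplicated histone genes most.

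Genes and TSSs came from GENCODE vM21 (basic set), promoter sequences from RefSeq (GRCm38.p6), with RefSeq starts matched for all 67 genes and promoter sequences for 62. Calls were compared between lines and treatments by a two-sided exact permutation test of each of 21951 genes over 8 libraries, adjusted by Benjamini-Hochberg over all of them. The code was tested on simulated data. No p was computed over the histone genes as a set. The genes, lists and tests were chosen with earlier results of these data known. Genes named in full were those called in all 8 libraries with the highest mean score percentile (up to 3 per type), those differing by at least 3 libraries between lines or treatments, all H1 genes, genes outside chromosome 13, testis genes, genes never called (up to 10) and list genes that differed by at least 3 libraries. Other genes were named after their values were seen. Words of 36 bases were counted exactly on both strands of the assembled chromosomes. Alternatives were other windows, overlaps, starts, peak numbers and thresholds, assignment of a peak to the nearest TSS, and leaving out each library. Python 3.11.15, numpy 2.4.6, pandas 2.3.3, scipy 1.17.1 and matplotlib 3.10.9 were used.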

Additional observations from a re-analysis of the deposited data

Results flagged for a closer look

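In groups of 4 libraries, 4 of 24 counts by type had 1 library apart from the others by Dixon's test. Its chance rate of about 1 group in 20 is meant for continuous values and does not hold for tied counts. The counts here are small whole numbers, and where the other 3 libraries tie, a difference of 1 or 2 genes is marked. The number marked is therefore not read against that rate. EpH4 with TGF-β, replicate 1, stood apart for H1, with 2 genes called against 1 in each other EpH4 library, and for H4, with 11 against 5, 5 and 6. EpRas with TGF-β, replicate 1, had 1 H1 gene called against 0 in the other EpRas libraries. Untreated EpRas replicate 1 had 15 H2A genes called against 13 in each other untreated library. These 3 libraries had the longest list of their group.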

How the results depend on the processing

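Calls rest on the length of each list, on how far a gene may be from a peak, and on how a peak between neighbouring genes is shared, and the lists give no depth. The mean share of histone genes called was 72.01% with windows of 2 kb and 40.3% when a peak went only to the nearest TSS. It was 44.4% with lists of equal length and 30.6% with the stricter score. Per library the histone shares were, in this order, 59.7% to 85.1%, 32.8% to 52.2%, 31.3% to 53.7% and 14.9% to 59.7%. Those of all genes were 19.3% to 35.9%, 15.8% to 29.8%, 18% to 21.8% and 7.39% to 26.6%. The number called in all 8 libraries was 4, 8 and 0 under the last 3 settings. The number called in none was 14, 16 and 19 (5 with windows of 2 kb). The matching counts over all genes are not given here. With equal lists EpRas minus EpH4 was −6.5 genes and TGF-β minus untreated −3.5. By type, the nearest TSS lowered H2A most, from 72.9% to 30.6%. Genes separating the treatments numbered 1 with the nearest TSS and 2 with equal lists. Without the share of all genes under these settings, neither count can be read against a background. The cause of these shifts was not tested beyond what each setting changes. Other settings were windows of 500 bp, the midpoint, an overlap of 100 bp and the gene's 5′ end. RefSeq starts, start codons and fewer repeats were chosen after seeing the data. Over all of these settings the mean share was 56.16% to 61.01%, and EpRas minus EpH4 was 1.25 to 2.25 genes. TGF-β minus untreated was 3.75 to 5.75, and the difference of TGF-β effects 1.5 to 4.5. From 14 (with fewer repeats) to 19 genes were called in all 8 libraries and 7 to 13 in none. In each setting 0 separated the lines or treatments.

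Leaving out 1 library gave a share called of 57.36% to 61.41%, EpRas minus EpH4 of −0.9167 to 5.417 genes, TGF-β minus untreated of 2.75 to 9.083, and a difference of TGF-β effects of −7.5 to 11.5. Genes separating the lines were 0 to 1 (Hist1h1e, without EpH4 TGF-β replicate 2), and those separating the treatments 0 to 2. The latter were Hist1h2bf and Hist1h2ad, which share a site, without EpH4 TGF-β replicate 1, and Hist1h2be, without untreated EpRas replicate 1. Shares of all genes with a library left out are not given here. From 18 to 22 genes were called in all remaining libraries and 9 to 12 in none.

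With the replicate number as a replicate block, 0 histone genes had an exact p below 0.05 for line or treatment, as without it, and this design could not reach that limit, since its smallest p was 0.0556. Deviations of same-numbered libraries correlated at −0.0166 to 0.114, so the numbers were not taken to pair the libraries.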
